A study of Mus musculus with 6 samples.

Results

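The genes described are 34 that act in making peroxisomes (the peroxins) or in moving and burning lipid inside them (membrane transporters and matrix enzymes). They were chosen by name, and 30 of the 34 have a row among the 13734 genes of the expression table: 11 of 13 peroxins, 16 of 17 enzymes and 3 of 4 transporters. The expression of Pex3, Pex26, Slc25a17 and Cat is not analysed here, and these genes enter only the descriptions of reference sequence. All 30 passed the filter on low values, which asked for a level of at least 1 CPM (reads per megaread of library size) in at least 3 libraries and left 10054 genes.

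The cells are white adipocytes grown from 1 immortalized line of mouse subcutaneous preadipocytes with the genotype Dicer1 flox/flox and Cre-ERT2, a Cre recombinase switched on by tamoxifen compounds. On day 6 of differentiation the DICER_KO cells (3 libraries) received 10 µM 4-hydroxytamoxifen for 48 h, which induces loss of Dicer1, the enzyme that matures microRNAs, and the control cells (3 libraries) received ethanol. All cells of both groups had the same floxed genotype, had been differentiated with rosiglitazone, and were given 10 µM isoproterenol, a beta-adrenergic agonist, for the last 6 h. An effect of 4-hydroxytamoxifen itself and one of the deletion cannot be told apart in this design, both groups come from 1 cell line, and the labels call the replicates biological without saying that they were grown separately. The p-values then measure no more than the spread among the 6 libraries, which may be technical.

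Peroxisomes are single-membrane organelles that shorten very long and branched fatty acids, start the synthesis of ether lipids and break down the hydrogen peroxide that their oxidases release. Their matrix enzymes are made in the cytosol and carried in by receptors that read a short signal at either end of the protein, while other peroxins insert membrane proteins or make the organelle grow and divide. In adipocytes peroxisomes multiply during differentiation and lie beside lipid droplets and mitochondria, to which they pass shortened acyl chains.

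Reads assigned to the table's genes ran from 13569034 to 30268077 per library. DICER_KO replicate 3 is both the deepest library and the one that stands apart: the chi-square of reads over genes, per degree of freedom, was 85.5 and 92.8 between it and the other 2 DICER_KO libraries, against 8.36 between those 2 and 12.1 to 26.4 between controls. Dicer1 was at 6.14, 6.09 and 6.14 log2 CPM in the controls and at 5.43, 5.47 and 5.49 in DICER_KO, a difference of -0.66 (SE 0.10, adjusted p = 0.0150 by limma), with all DICER_KO libraries, replicate 3 included, below all controls. Most mature adipocyte markers moved with the split of the DICER_KO libraries: their summed level over 16 of 16 genes was 8211 to 10118 CPM in the controls, 13388 and 13153 CPM in DICER_KO replicates 1 and 2, and 4186 CPM in replicate 3. Fabp4 was the most abundant, at 11.6 to 12.1 log2 CPM in the controls and 12.7, 12.7 and 10.8 in DICER_KO. In replicates 1 and 2, 14 of 16 markers were above every control and 1, Lpl, below (28.2% and 23.5% of all genes). In replicate 3, 15 were below every control (28.9% of all genes), and 11 of 16 differences over all libraries were positive. Preadipocyte and fibroblast markers (13 of 14 in the table) summed to 9909 to 11325 CPM in the controls and 5730 to 7352 CPM in DICER_KO, a sum carried by collagen and matrix genes such as Col1a1 and Col3a1. Pdgfra, Pdgfrb, Ly6a and Cd34 differed by -0.06 to 0.02 and Dlk1 by 0.29. Thy1, a surface marker, differed by -0.46 (adjusted p = 0.112 by limma), with all DICER_KO libraries below all controls. Of 11 tested markers, 6 had groups that did not overlap in the lower direction and 0 in the higher (9.81% and 10.4% of all genes). In replicate 3, 10 of 11 were below every control (28.9% of all genes). Macrophage markers (5 of 8 in the table) summed to 23.6 to 28.3 CPM in the controls and 28.5 to 31.6 CPM in DICER_KO, with Fcgr1 and Cx3cr1 at 0 to 4 reads. The macrophage markers went opposite ways: Cd68 differed by 0.39 and Csf1r by -0.16 (-0.34 without replicate 3), and Mrc1 had 2 to 22 reads. Hepatocyte markers (2 of 5 in the table) summed to 0.543 to 1.79 CPM. The part of these marker shifts in the results that follow was not tested, and in such bulk RNA fewer cells of a type and less RNA per cell cannot be told apart.

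With all 6 libraries, 0 of the 30 peroxisome genes passed the threshold (limma, adjusted p under 0.05), where 0.149% of all genes tested were called higher and 0.288% lower. Most estimates nevertheless lay above 0: 26 of 30 members had a positive difference, with a median of 0.20 on the log2 scale against 0.02 for all genes. At an unadjusted p under 0.05, 5 members were higher (Acaa1b, Pex2, Ehhadh, Acox3 and Hsd17b4) and 0 lower, beside 8.49% and 7.35% of all genes, and limma-voom on recovered reads also called 0. The smallest adjusted p was 0.209, for the thiolase gene Acaa1b.

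The DICER_KO libraries did not move together. In replicates 1 and 2, 20 of 30 members stood above every control and 0 below, against 28.2% and 23.5% of all genes. In replicate 3, 18 of 30 stood below every control, 10 within the control range and 2 above, where 28.9% of all genes were below and 28.8% above. The groups did not overlap for 1 member, Pex2, which was higher in DICER_KO (10.4% of all genes did so), and for 0 members in the lower direction (9.81% of all genes). Without DICER_KO replicate 3, 17 of 30 members rose and 0 fell (limma, adjusted p under 0.05), beside 12.5% and 7.22% of all genes. Weighting each library by its estimated spread (limma's array weights, by its gene-by-gene method because the REML method did not converge) gave 16 and 0, beside 19.2% and 13.6%. The weights were 0.242 for DICER_KO replicate 3, 3.835 for control replicate 1 and 0.609 to 1.675 for the other libraries. This fit therefore discounts the same DICER_KO library, leans on 1 control, and is no independent check. Since 0 members passed with all libraries, each rise named among the members below is from the fit without DICER_KO replicate 3. Leaving out each library in turn was planned for all 6, and leaving out any other library called 0 members. The adjusted p-values without replicate 3 omit the spread that this library adds. A rise named below therefore describes DICER_KO replicates 1 and 2 beside the controls, and is no support for a change over all libraries.

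**Figure D1:**
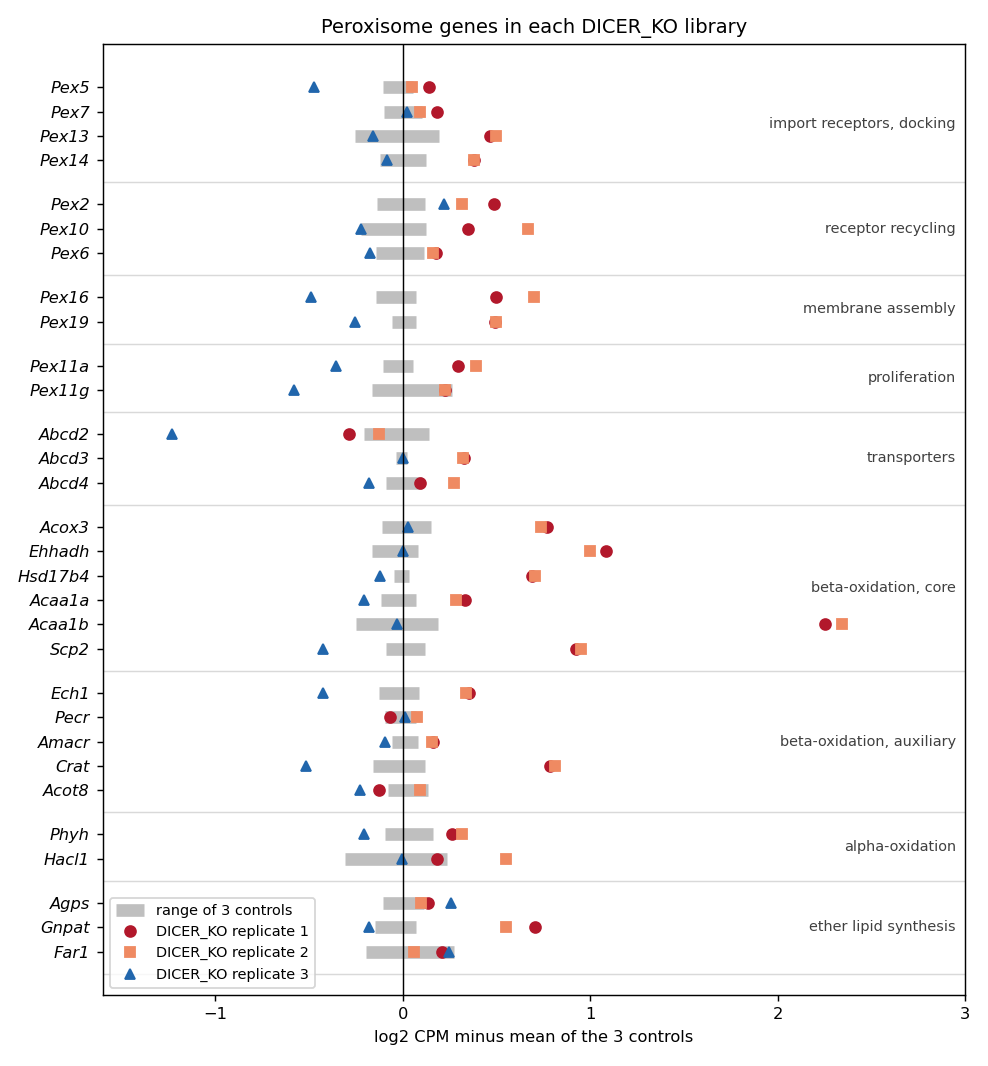
Log2 CPM of each peroxisome gene in DICER_KO replicate 1 (circles), 2 (squares) and 3 (triangles), minus the mean of the 3 controls, whose range is the grey bar, with genes ordered by role. Replicates 1 and 2 lie together to the right of the grey bar for 20 of 30 genes, and replicate 3 lies to its left for 18.

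The import machinery was measured at 4 genes. Pex5 and Pex7 encode the soluble receptors for the type 1 and type 2 import signals, and Pex13 and Pex14 encode the docking complex at the membrane. Pex14 was at 6.63, 6.76 and 6.51 log2 CPM in the controls and at 7.02, 7.02 and 6.55 in DICER_KO, a difference of 0.23 (SE 0.14, adjusted p = 0.422). Pex13 was at 5.68, 5.37 and 5.81 in the controls and at 6.09, 6.12 and 5.46 in DICER_KO, a difference of 0.27 (SE 0.18, adjusted p = 0.454). For both docking genes replicates 1 and 2 were above all controls and replicate 3 was within their range. Without replicate 3 both rose, Pex13 by 0.48 (adjusted p = 0.0124) and Pex14 by 0.38 (adjusted p = 0.0149). The receptors did not pass in either fit: Pex5 differed by -0.09 (adjusted p = 0.766) with all libraries and 0.10 (adjusted p = 0.488) without replicate 3, and Pex7 by 0.10 and 0.14 (adjusted p = 0.654 and 0.399). Of the exonic bases of Pex14, 31.4% are also covered by a gene on the opposite strand, Gm17029, and strand use in the counting is not stated.

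The signals that these receptors read are shown next, and the measured enzymes are grouped by which signal pattern their coding sequence matches. A type 1 signal is a C-terminal tripeptide read by Pex5, and a type 2 signal is a nonapeptide near the N-terminus read by Pex7. Among 21503 protein-coding genes with a complete coding sequence in GENCODE M21 (GRCm38), 108 (0.502%) end in a type 1 match and 36 (0.167%) hold a type 2 match near the N-terminus, whereas 8 of the 17 listed enzymes have the first and 3 the second. The last coding bases of 7 enzymes with a type 1 match follow, 5′ to 3′ on the coding strand, with the codons of the last 3 residues in capitals and then the stop codon.
Ehhadh: gcaggaccccatagcAGCAAACTGtga
Scp2: cttcagccgggcaaaGCTAAGCTGtga
Ech1: aaaagcatcaccttcTCCAAGCTCtga
Pecr: tcttttaagaagaaaGCCAAGCTCtaa
Crat: cagaaccaccccaggGCCAAGCTCtga
Acot8: cctcaggtgtcagagAGTAAGCTAtag
Gnpat: ggaaaaccagccactGCAAAACTAtaa

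The 3 enzymes with a type 2 match are both thiolases and phytanoyl-CoA hydroxylase (Phyh), with the 9 matching codons in capitals.
Acaa1a: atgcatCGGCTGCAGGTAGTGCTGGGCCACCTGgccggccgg
Acaa1b: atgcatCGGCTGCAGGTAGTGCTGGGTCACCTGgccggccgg
Phyh: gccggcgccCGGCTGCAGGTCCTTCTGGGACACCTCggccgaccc

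The 8 enzymes with a type 1 match had a median difference of 0.36 with all libraries and 0.66 without replicate 3, and 0 of 8 passed in the first fit and 6 of 8 rose in the second, beside 12.5% of all genes. The 3 with a type 2 match had medians of 0.14 and 0.31, with 0 and 2 of 3 called. The 5 measured enzymes with neither match (Acox3, Amacr, Hacl1, Agps and Far1) had medians of 0.17 and 0.16, with 0 and 1 of 5 called, the latter a share near that of all genes. Differences between these groups were not tested, since genes are not replicates. A missing match says only that the pattern searched is not there, so the groups are not routes of entry. Agps, an ether lipid enzyme that acts inside the peroxisome, is among the enzymes with neither match.

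The receptor recycling genes include Pex2 and Pex10, RING-type ubiquitin ligases of the membrane, and Pex6, an ATPase that pulls the receptor back out. Pex2 (Entrez 19302, GRCm38 chr3:5560188-5578596) was at 5.49, 5.33 and 5.58 log2 CPM in the controls (mean 5.47 ± 0.13, SD, n = 3) and at 5.95, 5.78 and 5.69 in DICER_KO (5.81 ± 0.13). All 3 DICER_KO libraries lay above all 3 controls, and the lowest DICER_KO value was close to the highest control. The difference of 0.34 (SE 0.12) had an unadjusted p of 0.0140 and an adjusted p of 0.228 by limma, and without replicate 3 it was 0.40 (adjusted p = 0.0194). Pex10 was at 3.03, 2.99 and 2.68 in the controls and at 3.25, 3.57 and 2.68 in DICER_KO, a difference of 0.26 (SE 0.22, adjusted p = 0.532). Replicates 1 and 2 of Pex10 were above the controls, replicate 3 was just below the lowest control, and the fit without it gave a rise of 0.51 (adjusted p = 0.0401). Pex6 differed by 0.06 and, without replicate 3, by 0.17 (adjusted p = 0.838 and 0.258).

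The membrane assembly genes followed the split of the DICER_KO libraries closely. Pex19 encodes the chaperone that collects newly made peroxisomal membrane proteins, and Pex16 a membrane protein that helps to insert others. Pex16 (Entrez 18633, GRCm38 chr2:92374676-92381220) was at 5.30, 5.30 and 5.09 log2 CPM in the controls (5.23 ± 0.12) and at 5.72, 5.93 and 4.74 in DICER_KO (5.46 ± 0.64). Pex19 was at 6.90, 6.99 and 6.86 in the controls and at 7.41, 7.42 and 6.66 in DICER_KO. In both genes replicates 1 and 2 were higher than all controls and replicate 3 lower than all controls. The differences over all libraries were 0.24 for Pex16 (SE 0.25, adjusted p = 0.626) and 0.25 for Pex19 (SE 0.18, adjusted p = 0.489). Without replicate 3 they were 0.60 for Pex16, 1.52-fold (SE 0.11, adjusted p = 0.00175), and 0.50 for Pex19 (adjusted p = 0.00187).

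Growth and division were represented by 2 members of the Pex11 family, which bend and elongate the peroxisomal membrane. Pex11a was at 6.00, 6.15 and 6.16 log2 CPM in the controls and at 6.40, 6.50 and 5.75 in DICER_KO, a difference of 0.11 (SE 0.17, adjusted p = 0.759). Pex11g was at 3.03, 3.40 and 2.97 in the controls and at 3.36, 3.36 and 2.55 in DICER_KO, a difference of -0.04 (SE 0.23, adjusted p = 0.933). In DICER_KO replicate 3 both were below every control, and in the other DICER_KO libraries Pex11a was above and Pex11g within the control range. Without replicate 3, Pex11a rose by 0.34 (adjusted p = 0.0251) and Pex11g differed by 0.23 (adjusted p = 0.315). For Pex11g 48.6% of exonic bases are shared with Gm44775 on the opposite strand.

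The transporters of the peroxisomal membrane that were measured are the half-transporters Abcd2 and Abcd3, which carry activated fatty acids into the organelle, and Abcd4, a relative known for cobalamin export from lysosomes. Abcd2 (Entrez 26874, GRCm38 chr15:91145871-91192007) had the largest negative estimate among the members: 4.51, 4.23 and 4.58 log2 CPM in the controls (4.44 ± 0.18) and 4.16, 4.32 and 3.21 in DICER_KO (3.89 ± 0.60). Replicate 1 was just below the lowest control, replicate 2 was within the control range, and replicate 3 was far below. The difference was -0.55 (SE 0.25, unadjusted p = 0.0504, adjusted p = 0.316), and -0.21 (SE 0.13, adjusted p = 0.272) without replicate 3. Abcd3 was at 6.85, 6.84 and 6.79 in the controls and at 7.15, 7.15 and 6.83 in DICER_KO, a difference of 0.22 (SE 0.11, adjusted p = 0.366). Replicate 3 was within the control range, and without it the gene rose by 0.32 or 1.25-fold (adjusted p = 0.0226). Abcd4 differed by 0.06 and 0.18 in the fits with and without replicate 3 (adjusted p = 0.837 and 0.305).

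The core of peroxisomal beta-oxidation had the largest median difference of the role groups. Its 6 measured genes encode an acyl-CoA oxidase (Acox3), 2 multifunctional hydratase and dehydrogenase enzymes (Ehhadh and Hsd17b4) and 3 enzymes of thiolytic cleavage (Acaa1a, Acaa1b and Scp2). All 6 had positive differences, with a median of 0.50, but 0 passed with all libraries. Without replicate 3 all 6 rose, beside 12.5% of all genes, with a median of 0.85. In replicate 3 itself, 3 of the 6 were within the control range and 3 below it.

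Acaa1b (Entrez 235674, GRCm38 chr9:119148043-119157093) was at 4.73, 4.29 and 4.60 log2 CPM in the controls (4.54 ± 0.23) and at 6.79, 6.88 and 4.51 in DICER_KO (6.06 ± 1.35). In replicates 1 and 2 its level was more than 2 log2 units above the control mean, and replicate 3 was among the controls. The difference was 1.52 (SE 0.49, unadjusted p = 0.0110, adjusted p = 0.209 by limma), and without replicate 3 it was 2.30 or 4.92-fold (SE 0.13, adjusted p = 1.12e-08). Leaving out any other library gave 1.11 to 1.62 with an adjusted p of 0.257 to 0.575.

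Ehhadh (Entrez 74147, GRCm38 chr16:21761285-21787834), the bifunctional enzyme of straight-chain substrates, was at 3.66, 3.41 and 3.66 log2 CPM in the controls (3.58 ± 0.14) and at 4.66, 4.57 and 3.58 in DICER_KO (4.27 ± 0.60). It showed the same arrangement, with replicate 3 inside the control range. The difference was 0.70 (SE 0.25, unadjusted p = 0.0173, adjusted p = 0.241), and 1.04 or 2.06-fold without replicate 3 (SE 0.13, adjusted p = 6.14e-05).

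The remaining core genes were chosen for a full account after their values had been seen. Scp2 (GRCm38 chr4:108043830-108144971), whose products include a thiolase of branched chains fused to a sterol carrier domain, was at 7.86, 7.81 and 8.02 log2 CPM in the controls (7.90 ± 0.11) and at 8.82, 8.85 and 7.47 in DICER_KO (8.38 ± 0.79). A RefSeq start of Scp2 lies inside the gene, and counts per gene do not separate its transcripts. Its level and rise thus cannot be assigned to the thiolase alone. Acox3 (GRCm38 chr5:35582981-35614208), an oxidase of branched acyl-CoAs, was at 4.94, 5.13 and 4.87 in the controls (4.98 ± 0.14) and at 5.75, 5.72 and 5.01 in DICER_KO (5.49 ± 0.42). Scp2 was below the controls in replicate 3, while Acox3 was within their range. Without that library Scp2 rose by 0.94 or 1.92-fold (adjusted p = 1.14e-05) and Acox3, which shares 10.2% of its exonic bases with a gene on the opposite strand, by 0.75 or 1.69-fold (adjusted p = 0.000268). With all libraries the differences were 0.48 (SE 0.30, adjusted p = 0.423) and 0.51 (SE 0.18, adjusted p = 0.245). Hsd17b4, the multifunctional enzyme that also handles branched and bile acid side chains, was at 6.66, 6.61 and 6.68 in the controls and at 7.34, 7.36 and 6.53 in DICER_KO. Its control libraries lay within a narrow range, with replicates 1 and 2 well above and replicate 3 below it. The difference was 0.42 (SE 0.19, adjusted p = 0.313) and, without replicate 3, 0.70 or 1.62-fold (adjusted p = 0.000113).

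**Figure D2:**
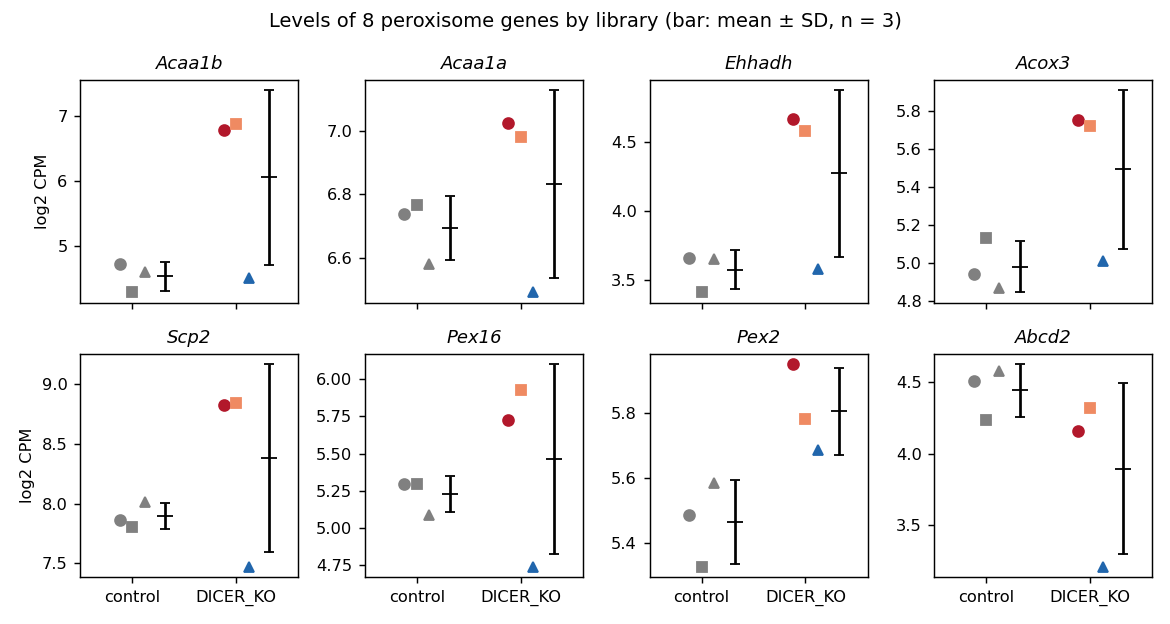
Log2 CPM of 8 peroxisome genes in each library, with the mean and SD of each group (n = 3) as a bar; circles, squares and triangles are replicates 1, 2 and 3, and each panel has its own axis. Replicates 1 and 2 of DICER_KO sit above the controls in all panels except Abcd2, and replicate 3 of DICER_KO lies apart from them in all panels except Pex2, with a group SD of 1.35 for Acaa1b.

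Both peroxisomal thiolase genes are near copies on chromosome 9 with estimates of different size, a difference that was not tested between the genes. Acaa1a (Entrez 113868, GRCm38 chr9:119341028-119350296) was at 6.74, 6.77 and 6.58 log2 CPM in the controls (6.70 ± 0.10) and at 7.03, 6.98 and 6.49 in DICER_KO (6.83 ± 0.30). Its difference was 0.14 (SE 0.14, adjusted p = 0.624), and 0.31 or 1.24-fold without replicate 3 (adjusted p = 0.0380). Their coding sequences have 1275 bases each, of which 1231 (96.55%) are identical. The first 90 coding bases are printed to show how alike they are, with the 3 differing bases in capitals.
Acaa1a: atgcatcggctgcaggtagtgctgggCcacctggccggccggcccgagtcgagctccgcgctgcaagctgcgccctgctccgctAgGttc
Acaa1b: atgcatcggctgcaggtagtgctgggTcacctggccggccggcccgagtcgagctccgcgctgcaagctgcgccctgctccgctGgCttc

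Per exonic base, the reads of Acaa1b were 0.259, 0.187 and 0.264 of those of Acaa1a in the controls. In DICER_KO the ratio was 0.888 and 0.973 in replicates 1 and 2, so that both genes were counted at nearly the same density, and 0.264 in replicate 3. Of 50-base windows of the Acaa1a transcript 34.03% occur unchanged in that of Acaa1b, and 35.55% in the other direction; for 150-base windows the shares are 12.7% and 13.3%. How reads that fit both genes were counted is not stated in the labels, so the split of reads between the 2 genes is uncertain. A gene on the opposite strand, Dlec1, covers 13.3% of the exonic bases of Acaa1b.

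The auxiliary enzymes of beta-oxidation had smaller estimates, apart from Crat. They handle double bonds and branched chains (Ech1, Pecr and Amacr), or pass products out as carnitine esters (Crat) or free acids (Acot8). Crat was at 7.09, 7.004 and 6.81 log2 CPM in the controls and at 7.75, 7.78 and 6.45 in DICER_KO, a difference of 0.36 (SE 0.29, adjusted p = 0.521). It was above all controls in replicates 1 and 2 and below them in replicate 3, and its rise without replicate 3 was 0.80 or 1.74-fold (adjusted p = 7.89e-05). Acot8 was at 3.54, 3.75 and 3.55 in the controls and at 3.49, 3.71 and 3.39 in DICER_KO, a difference of -0.09 (SE 0.14, adjusted p = 0.768). Its libraries overlapped, also without replicate 3 (-0.02, adjusted p = 0.946), and 21.1% of its exonic bases are shared with Snx21 on the opposite strand. Of the others, Ech1 rose without replicate 3 by 0.35 (adjusted p = 0.0233), and Pecr (0.01, adjusted p = 0.982) and Amacr (0.16, adjusted p = 0.348) did not pass. In the median the group differed by 0.08 with all libraries and by 0.16 without replicate 3. Crat also has mitochondrial forms and Ech1 works in mitochondria too, and the counts do not separate them.

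Alpha-oxidation, which removes 1 carbon from methyl-branched acids such as phytanic acid, was measured at its hydroxylase Phyh and its lyase Hacl1. Phyh was at 3.92, 3.90 and 4.15 log2 CPM in the controls and at 4.25, 4.30 and 3.78 in DICER_KO, a difference of 0.13 (SE 0.16, adjusted p = 0.695). Hacl1 was at 3.80, 3.26 and 3.64 in the controls and at 3.75, 4.12 and 3.56 in DICER_KO, a difference of 0.24 (SE 0.18, adjusted p = 0.500). Phyh was above the controls in replicates 1 and 2, whereas for Hacl1 only replicate 2 was. Neither passed without replicate 3, at 0.29 (adjusted p = 0.119) and 0.37 (adjusted p = 0.131). Hacl1 shares 58.3% of its exonic bases with Gm49387 on the same strand, so its count is uncertain.

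The ether lipid genes encode the acyltransferase Gnpat and the alkyl synthase Agps, which act in turn inside the peroxisome, and the fatty acyl-CoA reductase Far1, which supplies the alcohol. Gnpat was at 6.77, 6.77 and 6.55 log2 CPM in the controls and at 7.41, 7.25 and 6.52 in DICER_KO, a difference of 0.36 (SE 0.20, adjusted p = 0.380). Agps was at 6.61, 6.51 and 6.73 in the controls and at 6.75, 6.71 and 6.88 in DICER_KO, a difference of 0.16 (SE 0.10, adjusted p = 0.431). Gnpat followed the common arrangement and rose without replicate 3, by 0.63 or 1.55-fold (adjusted p = 0.000656), with 9.38% of its exonic bases shared with another gene on the same strand. Agps did not: its highest level was in replicate 3, and without that library the difference was 0.12 (adjusted p = 0.413). Far1 differed by 0.17 with all libraries and by 0.14 without replicate 3 (adjusted p = 0.501 and 0.453).

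**Figure D3:**
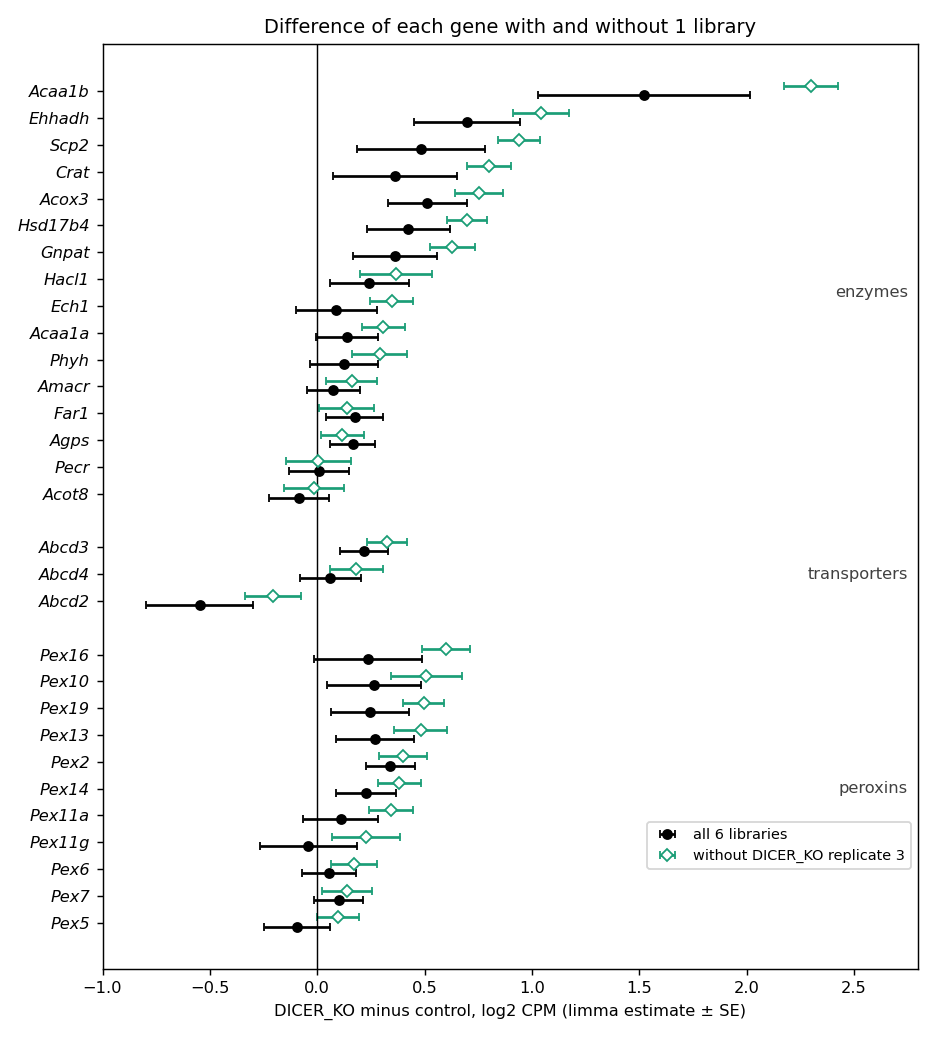
Limma estimates of the difference between DICER_KO and control, in log2 CPM with bars of 1 SE, for each peroxisome gene with all 6 libraries (filled circles) and without DICER_KO replicate 3 (open diamonds). The open diamonds lie further right and have shorter bars for most genes, and enzymes spread from -0.02 to 2.30 there while peroxins spread from 0.10 to 0.60. The value of 2.30 is Acaa1b, and the next highest is Ehhadh at 1.04.

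Peroxins and enzymes were then set side by side. With all libraries the median difference was 0.23 for 11 peroxins and 0.21 for 16 enzymes, with 9 of 11 and 15 of 16 estimates positive and 0 called in either class. Without replicate 3 the medians were 0.38 and 0.36, and 7 of 11 peroxins and 9 of 16 enzymes rose, beside 12.5% of all genes. By library the peroxin median was 0.35, 0.38 and -0.22 against the control mean in DICER_KO replicates 1, 2 and 3, and the enzyme median was 0.34, 0.45 and -0.11. The typical peroxin and the typical enzyme thus shifted by similar amounts in each library: the enzyme median minus the peroxin median was -0.01, 0.06 and 0.12 in DICER_KO, inside the -0.12 to 0.15 of the controls. The classes differed in their range, which with all libraries was -0.09 to 0.34 in peroxins and -0.09 to 1.52 in enzymes. The upper end in enzymes is Acaa1b alone, whose count is uncertain, and without it the highest difference of any member was 0.70, for Ehhadh. A range can also widen with the number of genes. The sum of all enzyme reads shows the weight of the abundant and responsive ones: 1040 to 1074 CPM in the controls, 1689 and 1682 CPM in replicates 1 and 2, and 927 CPM in replicate 3. The peroxin sum was 656 to 695 CPM in the controls, 854 and 853 CPM in replicates 1 and 2, and 574 CPM in replicate 3. The 3 transporters had a median of 0.06, and of 0.18 without replicate 3.

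**Figure D4:**
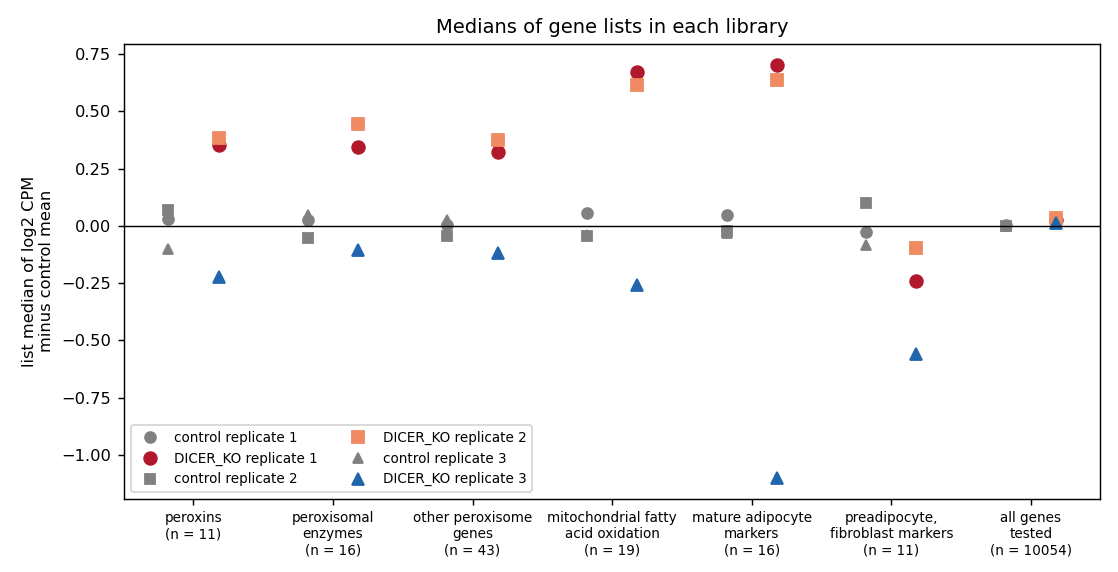
Median over each gene list of log2 CPM minus the control mean, for each control library (grey) and each DICER_KO library (coloured), with circles, squares and triangles for replicates 1, 2 and 3. The peroxin, enzyme and other peroxisome medians lie between 0.32 and 0.45 in DICER_KO replicates 1 and 2 and between -0.22 and -0.11 in replicate 3, and the adipocyte markers reach -1.10 there, while the median of all genes stays near 0.

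Levels were compared per length, as CPM per kilobase of exon in the controls. Scp2 was highest at 90.1 ± 6.88 (SD, n = 3), followed by Ech1 at 72.7 ± 5.52 and Acaa1a at 58.9 ± 4.03. Pex14 (49.7 ± 4.24) and Pex5 (48.4 ± 2.92) were the highest peroxins and did not differ from each other beyond their spread. Pex11g (3.08 ± 0.51) and Pex7 (3.14 ± 0.22) were lowest, also within their spread. The length counts every annotated exon base of a gene, used in these cells or not, and is 8099 bases for Pex7. The ranking depends on it: before division by length the control mean of Pex7 (4.66 log2 CPM) was above that of Pex10 (2.90). Acaa1b was at 13.9 ± 2.09 in the controls and 49.6 ± 31.4 in DICER_KO, where the SD carries the low value of replicate 3.

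A wider list of 60 other peroxisome genes had 47 in the table and 43 tested. As with the members, 0 passed in either direction with all libraries, 10 were higher and 1 lower at an unadjusted p under 0.05 (8.49% and 7.35% of all genes), and 37 of 43 estimates were positive (median 0.19). Without replicate 3, 18 rose and 1 fell, beside 12.5% and 7.22% of all genes (median 0.35). The 3 with the smallest p were Zadh2, Ephx2 and Acox2. Zadh2, a prostaglandin reductase, was at 6.57, 6.50 and 6.57 log2 CPM in the controls and at 6.96, 6.80 and 6.82 in DICER_KO, a difference of 0.31 (SE 0.10, adjusted p = 0.193). All its DICER_KO libraries, replicate 3 included, were above the controls. Ephx2, the soluble epoxide hydrolase, was at 6.43, 6.33 and 6.44 in the controls and at 8.46, 8.41 and 6.32 in DICER_KO, a difference of 1.33 (SE 0.44, adjusted p = 0.225). Replicates 1 and 2 were well above the controls and replicate 3 just below them, and it rose by 2.04 without replicate 3 (adjusted p = 1.56e-09). Acox2, an oxidase of bile acid precursors, was low, at 1.10, 1.37 and 1.04 in the controls and 2.06, 1.56 and 1.76 in DICER_KO, a difference of 0.62 (SE 0.21, adjusted p = 0.228). Mvk, the mevalonate kinase, was named after its values were seen because it is the 1 gene that fell without replicate 3: it was at 4.28, 4.41 and 4.36 in the controls and at 3.71, 4.08 and 4.22 in DICER_KO, a difference of -0.35 (adjusted p = 0.291), and -0.46 without replicate 3 (adjusted p = 0.0246).

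Mitochondrial fatty acid oxidation, which takes over the chains that peroxisomes shorten, was also higher in DICER_KO replicates 1 and 2 and lower in replicate 3. All 19 tested genes of its list of 20 had positive differences, with a median of 0.35, and 0 passed with all libraries. Without replicate 3, 18 of 19 rose, beside 12.5% of all genes, with a median of 0.65. That median lay between the 0.35 of the 30 peroxisome members and the 0.85 of the 6 core genes of peroxisomal beta-oxidation. In replicate 3, 16 of the 19 were below every control, against 3 of those 6 core genes. Its medians were 0.67, 0.61 and -0.26 in DICER_KO replicates 1, 2 and 3, and those of mature adipocyte markers were 0.70, 0.64 and -1.10. The difference between the lists was not tested. Among 10 regulators of peroxisome genes that were tested, 8 estimates were positive, 0 passed with all libraries and 6 rose without replicate 3, beside 12.5% of all genes. These 6 were Ppara (1.65), Ppargc1a (1.26), Ppargc1b (1.12), Pparg (0.58), Nrip1 (0.48) and Ncor1 (0.42). The part of any of them in the shifts of the members was not tested. Ppara, the nuclear receptor known to switch on peroxisomal beta-oxidation genes in liver, was picked out after its values were seen: it was at 3.92, 4.04 and 3.82 log2 CPM in the controls and at 5.61, 5.53 and 3.52 in DICER_KO. Replicate 3 lay below the controls and the others well above, with a difference of 0.96 (SE 0.44, adjusted p = 0.317), and 1.65 without replicate 3 (adjusted p = 2.09e-07).

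Promoter sequence was searched for the element that such receptors bind, a direct repeat spaced by 1 base, AGGTCANAGGTCA, on both strands. RefSeq windows of 300 bases around the start (GRCm38.p6) were found for 27 of the 34 listed genes, 31 windows in all. None held an exact match or one with 1 mismatch, as against 0.0396% and 0.554% of 32851 windows of all genes. At shares this low, 31 windows are too few to show a lack of the element. With 2 mismatches allowed, 1 of 31 windows matched (3.23%, that of Cat, which has no expression value here), beside 3.86% of all windows. These matches describe the searched windows only, and sequence elsewhere was not searched.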

How the data were processed

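Poly(A) RNA of 6 libraries was sequenced as read pairs, as the labels' protocols and the series' design text state. The authors deposited log2 CPM per gene in 1 column per library, and 0 columns belonged to samples outside the series. Tools given in the submitters' processing notes are FastQC, Trimmomatic, HISAT2, featureCounts and edgeR, with the builds mm10 and GRCm38. The design text adds TMM scaling, and strand use is not given in the sources used here. Each deposited log2 value equals a whole read number plus 0.5 over a library size (100% whole at a tolerance of 0.01 reads). These reads served depth, limma-voom and median-of-ratios scaling alone. Entrez IDs were matched to RefSeq symbols (GRCm38.p6; 13682 matched, 52 did not).

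Limma 3.58.1 (R 4.3.3) with an intensity trend was fitted to the genes that reached 1 CPM in 3 or more libraries, with the group as the only term and Benjamini-Hochberg adjustment over 10054 genes (threshold 0.05); every p here is from that test. It was tested on simulated data. Values were given for members that passed, for members whose groups did not overlap and for the 2 smallest p in each role, and for the 3 smallest p of the other peroxisome genes. The members and lists were chosen with earlier results of these data known. The plan took import signals from proteins; they were read from GENCODE M21 coding sequences instead. Exon lengths and overlaps are from that annotation. Scaling, filter, pseudocount, test, replicate term and libraries were varied. Tables and figures were made in Python 3.11.15 (numpy 2.4.6, pandas 2.3.3), with scipy 1.17.1 for statistics and matplotlib 3.10.9 for plots.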

Additional observations from a re-analysis of the deposited data

How the results depend on the processing

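The 0 calls among the 30 members held under 2 other scalings, 2 other filters, log2(CPM + 1), log2(CPM + 5), limma-voom and a robust variance, and changed in 2 settings. Both of these gave DICER_KO replicate 3 little weight or none. Array weights called 16 members higher, 22 other peroxisome genes higher and 1 lower, and 18 mitochondrial fatty acid oxidation genes higher. Leaving out 1 library at a time gave 0 to 17 members, 0 to 18 other peroxisome genes higher and 0 to 1 lower, and 0 to 18 mitochondrial genes, with calls in these lists only without DICER_KO replicate 3. Among all genes the 15 higher and 29 lower calls became 1928 and 1371 with array weights, 1257 and 726 without DICER_KO replicate 3, 8 and 21 with limma-voom, 23 and 47 with a robust variance, and 0 to 14 and 1 to 22 when any other library was left out, lowest without control replicate 3. The medians of the peroxins (0.0635 to 0.382) and enzymes (0.154 to 0.357) kept their sign when any 1 library was left out, and that of the transporters ran from -0.0436 to 0.182.

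Estimates near 0 changed sign, and the cause was not tested. With array weights Pex5 was at 0.0161, Pex11g at 0.22 and Acot8 at 0.0238, and Pecr was at -0.00637 under median-of-ratios scaling and at -0.00587 under quantile normalization. Leaving out 1 library at a time, Pex5 ran from -0.21 to 0.0967, Pex6 from -0.016 to 0.171, Pex11a from -0.0316 to 0.344, Pex11g from -0.177 to 0.227, Abcd4 from -0.0436 to 0.182, Ech1 from -0.0431 to 0.347 and Pecr from -0.0374 to 0.0468.

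Libraries of different groups share replicate numbers but nothing says that these pair them: deviations of same-numbered libraries correlated at 0.196, -0.0142 and -0.0786 across genes. With the replicate number as a block, 0 members were called, and 0 genes higher and 2 lower among all genes. The least counted member, Pecr, had 130 reads in its shallowest library.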
